A study of Mus musculus with 15 samples.

Results

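The histone genes of mouse epiblast-like cells (EpiLCs) were followed while ERK signalling was switched on and then blocked. Members were all rows of the count table whose symbols name a replication-dependent histone of clusters 1 to 4 (Hist1h to Hist4h) or an H2A or H3 variant (H2af and H3f3). They numbered 87 of 52636 rows. Of these, 70 were replication-dependent, namely 67 coding genes and 3 pseudogenes (Hist1h2aj, Hist1h2al and Hist3h2bb-ps). The other 17 were variant rows: 11 coding genes, 5 pseudogenes and 1 antisense gene, H3f3aos. By family the replication-dependent rows held 6 H1, 20 H2A, 19 H2B, 12 H3 and 13 H4 genes.

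The cells were embryonic stem cells of a line named CRAFR26, which carries a c-RAF construct that tamoxifen activates. They were passaged towards the RSC state and then kept for 48 h in EpiLC medium with bFGF (12 ng/ml), Activin A (20 ng/ml) and the tankyrase inhibitor XAV939 (1 µM). Every group, the control included, received the FGF receptor inhibitor PD17 (250 nM) for 2 h before induction. The 0h group (n = 3) was taken then, and the groups 2h and 4h (n = 4 each) after 2 h and 4 h of 4-hydroxytamoxifen (4OHT, 250 nM). The rev group (n = 4) was given a MEK inhibitor for 2 h after those 4 h, so in rev the inhibitor and the later time cannot be told apart. No library without 4OHT was taken at 2 h or 4 h. In 2h and 4h against 0h, 4OHT and the later time therefore cannot be told apart either. Samples came from 2 clones of the line, 7 libraries from clone 4 and 8 from clone 8. The 0h group held 1 library of clone 4 and 2 of clone 8, and p-values measure the spread between such libraries. Total RNA was depleted of ribosomal RNA, with no selection for poly(A) tails. In bulk RNA, fewer cells of a kind and less RNA per cell cannot be told apart.

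Nucleosomes wrap DNA around an octamer of the core histones H2A, H2B, H3 and H4, and linker H1 binds where the DNA enters and leaves. The replication-dependent genes supply new histones while DNA is copied. They lie in clusters, mostly lack introns, and make mRNAs that end in a conserved stem-loop in place of a poly(A) tail. The protein encoded by Slbp binds this stem-loop and serves in processing, export and translation of the mRNA, which is degraded when DNA synthesis stops. Variant genes such as H2afz and H3f3b lie elsewhere, mostly have introns and poly(A) tails, and are expressed outside S phase as well.

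The stem-loop was searched in GENCODE M21 transcripts as 6 bases, a loop of 4 bases, and 6 bases that pair with the first. The bases were preset to the histone form: a first stem strand GGYYYU and a loop UYUN. Here Y is C or U, and N is any base. Other hairpins of this size were not counted, so the likeness of the forms below is in part preset. This pattern was found in 46 of 67 coding replication-dependent genes (68.7%). It was found in 1 of 11 coding variants (9.09%), H2afx, and in 5 of 21669 other coding genes (0.023%). Of the 21 replication-dependent genes without it, 13 (61.9%) had a model whose last bases spell a stop codon. Reading frame was not checked, and the region may be missing from these models. The forms below are shown because they are the feature that sets this class of mRNA apart. Capitals mark the stem and lower case the loop, with U for T.
Form of 26 H1, H2A, H2B and H3 genes: GGCUCUuuucAGAGCC
Form of 6 H1, H2B and H3 genes: GGCUCUuuuaAGAGCC
Form of 7 H4 genes: GGCCCUuuucAGGGCC
Form of Hist1h4i and Hist2h4: GGCCCUuuuuAGGGCC
Form of Hist1h4b and Hist1h4j: GGUCCUuuucAGGACC
Form of Hist2h2ac: GGCUCUuuuuAGAGCC
Form of Hist1h3g: GGCUCUucuuAGAGCC
Form of Hist1h4a: GGCCCUucucAGGGCC
Form of H2afx: GGCCCUuuuaAGGGCC
The replication-dependent H4 forms have other stem base pairs than the replication-dependent H1, H2A, H2B and H3 forms, and H2afx has the stem of most H4 genes.

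Counts per library ran from 8667880 to 13004556 at 0h, 2h and rev. The 4h libraries held 1552022 (clone4_1), 6658950 (clone4_2), 6209289 (clone8_1) and 3492073 (clone8_2) counts, all below the other groups. Mitochondrial genes took 7.21 to 12.4% of the 4h counts and 2.67 to 6.98% elsewhere. The 20 most abundant genes took 65.6 to 79.5% at 4h and 51.0 to 73.2% elsewhere. The level of 3 counts was 0.683 to 1.83 CPM in 4h libraries and 0.161 to 0.423 CPM in the others. Levels are in CPM on TMM-scaled library sizes, and floors cover counting error only. All 9 EpiLC markers were tested, and their summed level was 1626 to 1883 CPM at 0h and 1084 to 1193 CPM at 4h. They did not move together: Sox2, Otx2 and Lef1 rose in 4h vs 0h, and Dnmt3b, Dnmt3a, Pou5f1, Fgf5 and Pou3f1 fell. The 7 naive stem cell markers summed to 16.3 to 24.0 CPM at 0h, 42.7 to 158 CPM at 4h and 20.3 to 28.2 CPM in rev. At 4h the sum was 46.4 and 42.7 CPM in the clone 4 libraries and 158 and 155 CPM in those of clone 8. The 3 neural markers summed to 2.86 to 4.97 CPM at 0h and 37.9 to 50.5 CPM at 4h, with Neurog2 at 0 in every 4h library. The 6 feeder markers summed to 4.21 to 10.7 CPM at 0h and 0.377 to 6.11 CPM at 4h, with Postn at 0 in every library. Primitive endoderm (6 markers) and mesendoderm (4 markers) summed to at most 7.43 and 11.4 CPM in any library. Whether depth, composition or these cell states had a part in the histone changes was not tested.

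Filtering on low counts left 66 of the 87 members for testing, 58 replication-dependent and 8 variant, among 13451 genes. Of the 21 not tested, 10 had no count in any library and 16 had at most 8 counts in all. The 12 untested replication-dependent genes, among them Hist2h2aa1, Hist2h2aa2, Hist2h3b and Hist2h3c1, shared 63.5 to 100% (median 95.4%) of their 50-base words with transcripts of other genes. For the 58 tested the median was 45.0%. Reads of near-identical copies can be split or dropped in counting, so levels of single copies are uncertain. Among the 66 tested members, 21 overlapped a gene on the opposite strand and 4 a gene on the same strand. Whether counting used strand is not given in the sources used here. Of the 70 replication-dependent genes, 56 lie on chromosome 13 and 65 have a single exon.

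Replication-dependent histones took a smaller share of the counts at 4h than at 0h in every library. In the 0h libraries clone4_1, clone8_1 and clone8_2 the share was 0.585, 0.548 and 0.316%. In the 4h libraries clone4_1, clone4_2, clone8_1 and clone8_2 it was 0.161, 0.0941, 0.158 and 0.148%, all below 0h. The group means were 0.483% ± 0.146 for 0h (SD, n = 3), 0.336% ± 0.121 for 2h, 0.140% ± 0.0312 for 4h and 0.314% ± 0.0510 for rev (SD, n = 4 each). Ribosomal RNA left after depletion made up part of these totals, 12.8 to 38.7% over all libraries. It was 18.0, 16.8 and 38.2% in the 0h libraries clone4_1, clone8_1 and clone8_2. With mitochondrial genes and the 20 most abundant genes taken out of the total, the means were 1.18% ± 0.0880 for 0h (SD, n = 3), 0.882% ± 0.134 for 2h, 0.551% ± 0.0975 for 4h and 0.955% ± 0.0786 for rev (SD, n = 4 each). On that basis the 0h libraries (1.10 to 1.27%) lay above every library of the other groups. Variant histones then took 0.194% ± 0.0347, 0.222% ± 0.0392, 0.139% ± 0.0120 and 0.203% ± 0.0258 in the same order of groups. The ratio of replication-dependent to variant counts averaged 6.14 ± 0.594 for 0h (SD, n = 3), 4.04 ± 0.841 for 2h, 4.01 ± 0.847 for 4h and 4.74 ± 0.653 for rev (SD, n = 4 each), so it was as low at 2h as at 4h. Shares of counts were not tested.

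**Figure D1:**
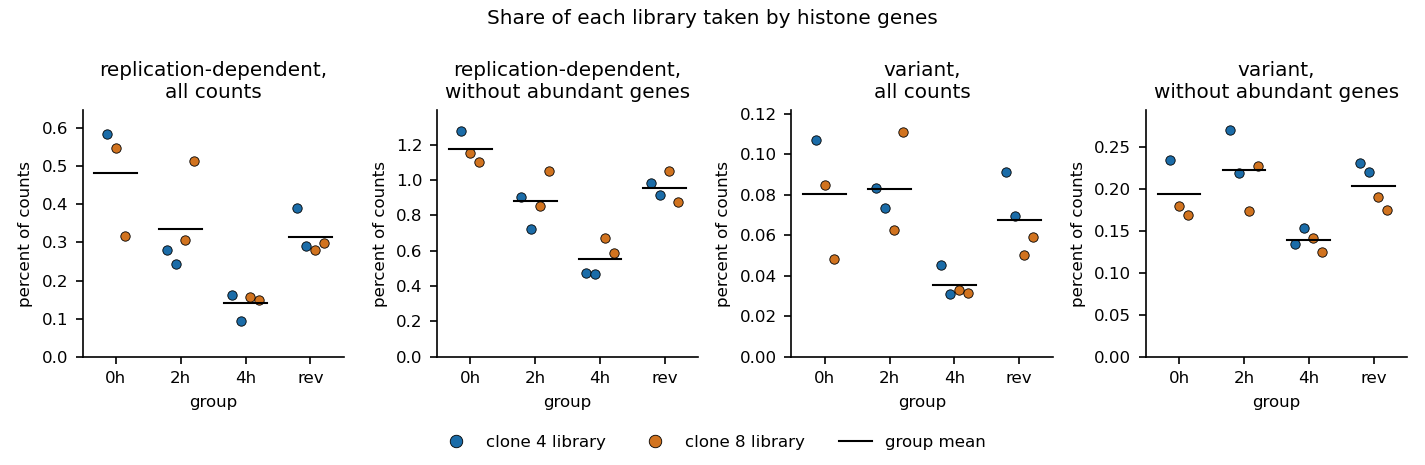
Share of each library's counts, in percent, taken by replication-dependent and by variant histone genes, by group, over all counts and with mitochondrial genes and the 20 most abundant genes taken out. Points are libraries and bars group means, and the 4 libraries of 4h sit lowest in both panels of the replication-dependent class.

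After 4 h of 4OHT the replication-dependent class was lower than at 0h nearly throughout. Of 58 tested genes 45 fell (77.6%) and none rose, against 18.9% of all tested genes called lower and 20.5% called higher. Both the 58 and the 45 include the pseudogenes Hist1h2al and Hist3h2bb-ps. Calls are edgeR quasi-likelihood tests with a Benjamini-Hochberg adjusted p under 0.05. At an unadjusted p under 0.05 edgeR gave 47 lower and 0 higher, and DESeq2 after adjustment gave 45 lower and 0 higher. Over all 13451 genes, 6439 had such an edgeR p in either direction. DESeq2 was run on all 32611 genes with at least 1 count and called 2304 lower (7.07%) and 2575 higher (7.90%). That total includes genes that the edgeR filter removed. The DESeq2 shares, here and below, are therefore not like for like with shares over 13451 genes or over filtered members. The median log2 fold change was -0.95, beside 0.03 over all tested genes, and 57 of 58 values were negative. For 41 of 58 genes every 4h library lay below every 0h library, against 18.1% of all tested genes. Of the 45 genes that fell, 25 fell by more than 2-fold.

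Members fell in each of the 5 families in 4h vs 0h, where 18.9% of all tested genes were called lower. Among H1 genes, 5 of 6 fell (median log2 -1.45). Among H2A genes, 12 of 15 fell (median -1.25), and among H4 genes, 10 of 12 (median -1.21). In H2B, 12 of 16 fell (median -0.85), and in H3, 6 of 9 (median -0.64). Differences between families were not tested.

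**Figure D2:**
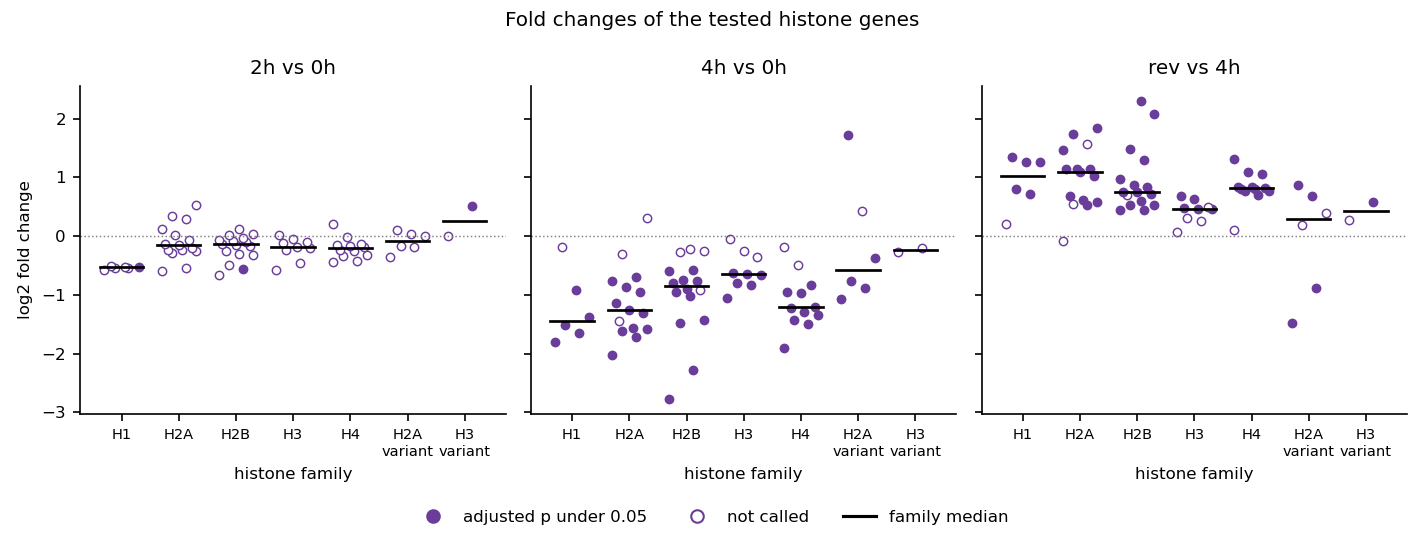
Log2 fold change of each tested histone gene by class and family, with a panel each for 2h vs 0h, for 4h vs 0h, and for rev against 4h. Filled points passed an adjusted p of 0.05, bars are family medians, and in 4h vs 0h the replication-dependent points lie below 0 except Hist2h2ab at 0.31. Hist2h2ab had 2, 2, 4 and 3 counts in the 4h libraries.

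The linker H1 genes Hist1h1a and Hist1h1b had the highest levels per length of all members at 0h, 2h and rev, and at 4h Hist1h4d stood highest. The lengths are those of the annotated models, 741 bases for Hist1h1a and 743 for Hist1h1b. Hist1h1d had 5425, 4088 and 2234 counts at 0h, beside 6229, 4047 and 2072 for Hist1h1b, but a model of 7425 bases. Ranks by level per length, here and below, therefore depend on the annotation. Hist1h1a (chr13:23763666-23764406, plus strand, GRCm38, 1 exon) encodes a somatic H1 subtype and stood at 672 CPM per kb at 0h. Its level was 560, 454 and 480 CPM in the 0h libraries clone4_1, clone8_1 and clone8_2. In the order clone4_1, clone4_2, clone8_1 and clone8_2 it was 421, 250, 271 and 437 CPM at 2h. At 4h it was 89.2, 135, 177 and 168 CPM, and in rev 350, 308, 421 and 278 CPM. The 4h libraries lay below all others and the 0h libraries above all others. The log2 fold change was -1.80 ± 0.26 (SE, edgeR adjusted p = 0.00027) in 4h vs 0h and 1.26 ± 0.24 (SE, adjusted p = 0.0025) in rev vs 4h.

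Hist1h1b, another H1 subtype, stood at 385 CPM per kb at 0h. It gave 336, 271 and 251 CPM at 0h, 230, 161, 170 and 233 CPM at 2h, 67.8, 79.5, 117 and 99.1 CPM at 4h, and 245, 223, 250 and 204 CPM in rev. The 4h libraries again lay below all others, and the 2h and rev libraries below all of 0h. Its log2 fold change in 4h vs 0h was -1.65 ± 0.17 (SE, edgeR adjusted p = 3.7e-06). Hist1h1c, Hist1h1d and Hist1h1e fell by 1.38, 1.52 and 0.92 on the log2 scale. The remaining member, the testis-specific Hist1h1t, had 3.02 to 6.17 CPM at 4h and 3.88 to 7.77 CPM at 0h, and its value was -0.18 ± 0.28 (SE, adjusted p = 0.64).

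The 3 deepest falls in 4h vs 0h were those of Hist1h2ba, Hist3h2ba and Hist1h2aa. Hist1h2ba (chr13:23933773-23934156, minus strand) encodes the testis-type H2B. Its level was 15.1, 12.2 and 13.1 CPM at 0h and 9.19, 6.28, 9.94 and 8.89 CPM at 2h. At 4h it was 0.611, 2.96, 2.05 and 1.51 CPM, which are 1, 12, 9 and 4 counts, and in rev 7.29, 13.3, 12.3 and 6.43 CPM. The 0h, 2h and 4h groups did not overlap, while rev overlapped both 0h and 2h. Its log2 fold change was -2.77 ± 0.31 (SE, edgeR adjusted p = 1.4e-06) in 4h vs 0h and 2.30 ± 0.30 (SE, adjusted p = 1.1e-05) in rev vs 4h.

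Hist1h2aa (chr13:23934462-23934851, plus strand) is the neighbouring H2A gene. It had 11.3, 5.88 and 7.75 CPM at 0h, 5.11, 5.92, 5.93 and 5.25 CPM at 2h and 4.76, 9.09, 7.33 and 6.54 CPM in rev. At 4h it had 0.611, 0.741, 3.64 and 2.64 CPM (1, 3, 16 and 7 counts). The 4h libraries lay below all others, and those of clone 4 lowest. The log2 fold change in 4h vs 0h was -2.02 ± 0.37 (SE, edgeR adjusted p = 0.00036).

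Hist3h2ba (chr11:58948920-58949533, plus strand) encodes an H2B of the Hist3 cluster. It gave 27.9, 23.7 and 22.5 CPM at 0h, 19.5, 16.5, 15 and 16.4 CPM at 2h, 4.89, 3.70, 5.92 and 6.03 CPM at 4h, and 24.0, 22.3, 21 and 20.4 CPM in rev. The 2h group lay between 4h and the other groups with no overlap, and rev overlapped 0h. Its log2 fold change was -2.27 ± 0.16 (SE, edgeR adjusted p = 8.7e-10) in 4h vs 0h and 2.09 ± 0.15 (SE, adjusted p = 2.5e-09) in rev vs 4h.

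Hist2h4 (chr3:96261682-96263311, minus strand) encodes H4. It gave 93.2, 81.7 and 82.0 CPM at 0h, 70.9, 46.6, 59.4 and 71.2 CPM at 2h, 14.7, 20.0, 29.6 and 25.6 CPM at 4h, and 52.9, 51.9, 69.5 and 48.1 CPM in rev. Every 2h, 4h and rev library lay below every 0h library. The log2 fold change in 4h vs 0h was -1.91 ± 0.17 (SE, edgeR adjusted p = 2.1e-07). In rev vs 4h it was 1.31 ± 0.17 (SE, adjusted p = 1.1e-05).

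**Figure D3:**
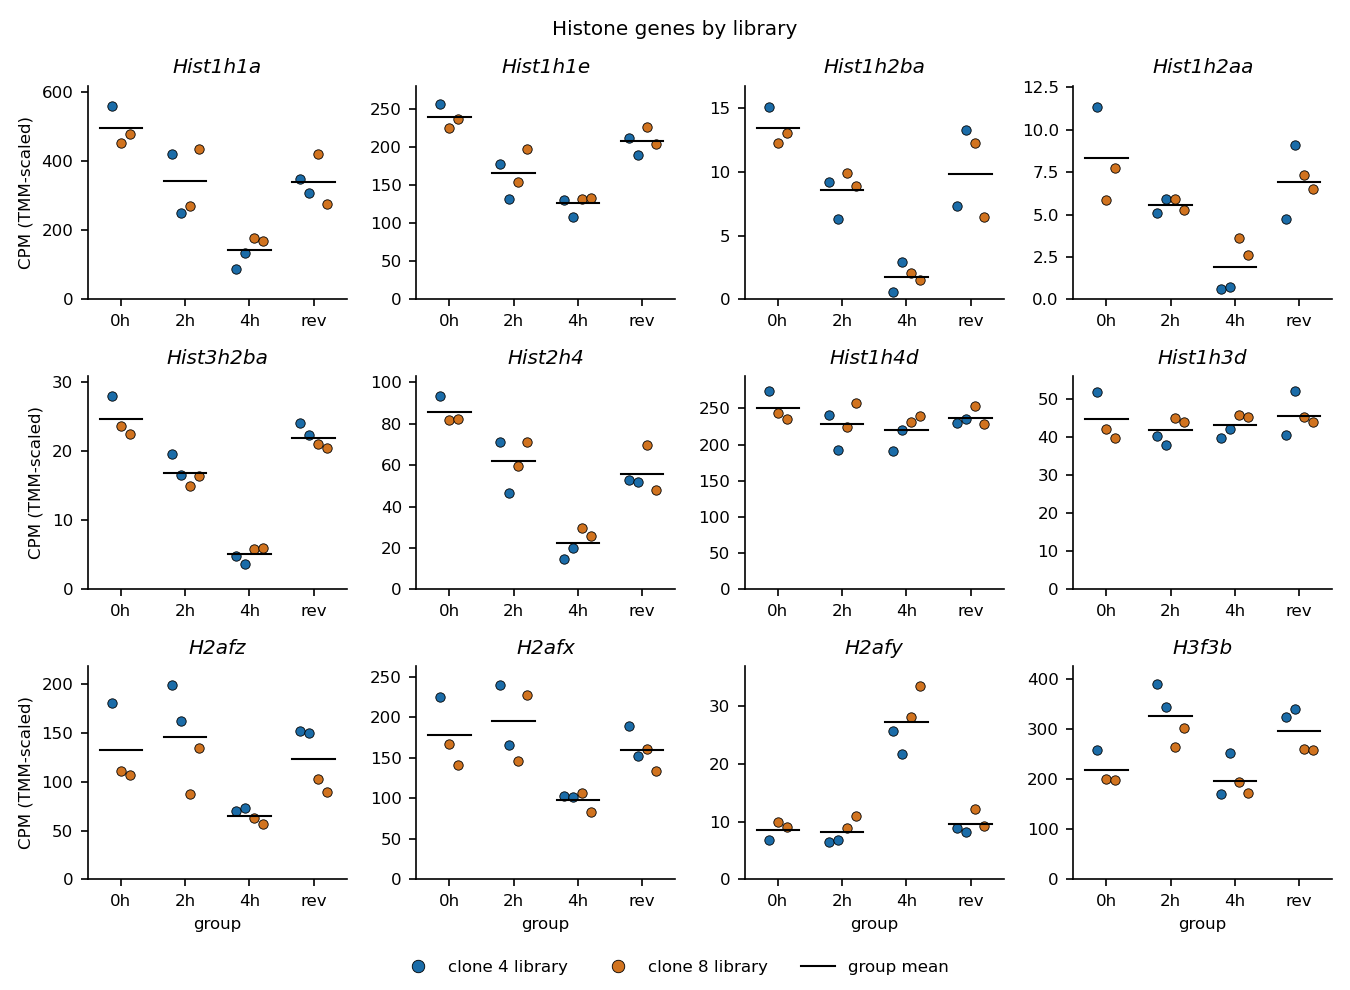
Level of 12 histone genes in each library (CPM after TMM scaling, linear axes from 0) by group, points coloured by clone, bars at group means. Hist1h1a, Hist1h2ba, Hist3h2ba and Hist2h4 are lowest at 4h, Hist1h4d and Hist1h3d overlap in all groups, and H2afy is highest at 4h (21.7 to 33.6 CPM).

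The 2 genes of highest mean level in each core family show how far the falls reached. Hist1h2ab (H2A) gave 34.1, 29.2 and 25.0 CPM at 0h, 22.7, 17.2, 26.2 and 33.8 CPM at 2h, 13.4, 9.63, 14.8 and 15.8 CPM at 4h, and 26.3, 25.1, 29.5 and 27.0 CPM in rev. Its 4h libraries lay below all others (4h vs 0h log2 -1.13 ± 0.17 SE, edgeR adjusted p = 2.6e-05). Hist1h2ak (H2A) gave 45.3, 41.2 and 37.8 CPM at 0h, 39.7, 24.8, 33.7 and 40.3 CPM at 2h, 17.1, 20.7, 30.3 and 29.0 CPM at 4h, and 33.8, 35.5, 39.6 and 30.4 CPM in rev. Its 4h libraries lay below 0h and overlapped 2h (log2 -0.75 ± 0.17 SE, adjusted p = 0.0011).

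Hist1h2bb (H2B) gave 45.0, 48.7 and 51.5 CPM at 0h, 41.4, 44.7, 43.9 and 38.6 CPM at 2h, 28.1, 27.6, 36.9 and 34.7 CPM at 4h, and 41.8, 41.2, 51.7 and 38.8 CPM in rev. Its 4h libraries lay below all others (4h vs 0h log2 -0.58 ± 0.11 SE, edgeR adjusted p = 0.00041), and with thinned counts the fall was not called (-0.43, adjusted p = 0.071). Hist1h3e (H3) gave 191, 155 and 154 CPM at 0h, 150, 106, 131 and 175 CPM at 2h, 85.5, 82.4, 134 and 119 CPM at 4h, and 144, 133, 156 and 141 CPM in rev. Its 4h libraries lay below 0h and overlapped 2h and rev (log2 -0.66 ± 0.15 SE, adjusted p = 0.0020), and in clone 8 alone the fall was not called (-0.30, adjusted p = 0.089).

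Hist1h3f (H3) gave 134, 102 and 95.7 CPM at 0h, 85.1, 65.4, 70.5 and 99.95 CPM at 2h, 51.9, 42.2, 66.0 and 53.5 CPM at 4h, and 86.8, 83.9, 89.9 and 71.7 CPM in rev. Its 4h libraries lay below 0h and rev, and it fell by 1.05 on the log2 scale. Hist1h4h (H4), at 253 CPM per kb at 0h and 99.5 CPM per kb at 4h, gave 135, 116 and 106 CPM at 0h and 107, 79.2, 73.6 and 118 CPM at 2h. It gave 45.8, 31.1, 63.7 and 46.4 CPM at 4h, below all others, and 91.6, 73.5, 91.4 and 69.5 CPM in rev. It fell by 1.35 on the log2 scale in 4h vs 0h.

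Hist1h2ad, a low gene, had 2.42 to 3.94 CPM at 0h and 2.44, 0.741, 1.37 and 0.377 CPM at 4h, from 6 counts or fewer in each 4h library. Its log2 fold change was -1.56 ± 0.36 (SE, edgeR adjusted p = 0.0015) in 4h vs 0h, where the groups overlapped. It was 1.84 ± 0.34 (SE, adjusted p = 0.00029) in rev vs 4h, where they did not. Within clone 4 alone the fall of Hist1h2ad was not called (log2 -1.38, adjusted p = 0.082).

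The other 13 replication-dependent genes missed the threshold at 4h. Hist1h4d (chr13:23581598-23582735, plus strand), the H4 gene with the highest mean level in CPM, gave 274, 244 and 235 CPM at 0h and 240, 193, 224 and 258 CPM at 2h. It gave 191, 220, 231 and 239 CPM at 4h and 229, 235, 253 and 228 CPM in rev. All groups overlapped (4h vs 0h log2 -0.18 ± 0.10 SE, edgeR adjusted p = 0.15). It was called lower with no filter (-0.30, adjusted p = 0.0071) and under total count scaling (-0.91, adjusted p = 0.0032). Hist1h3d (chr13:23575763-23577011, plus strand), an H3 gene, gave 51.8, 42.1 and 39.7 CPM at 0h and 39.7, 42.0, 45.8 and 45.2 CPM at 4h (log2 -0.04 ± 0.12 SE, adjusted p = 0.79). Per length, Hist1h4d stood at 221 CPM per kb at 0h and 194 CPM per kb at 4h, next to Hist1h4f, another H4 gene, at 213 and 79.2. Their models were 1138 and 391 bases long. Hist1h2bg (H2B) gave 40.3, 45.5 and 45.5 CPM at 0h, 33.6, 51.4, 60.3 and 43.1 CPM at 2h, 35.4, 29.9, 41.9 and 36.6 CPM at 4h, and 53.7, 55.9, 55.4 and 51.2 CPM in rev. Its 0h and 4h libraries overlapped (log2 -0.26 ± 0.14 SE, adjusted p = 0.14), and it too was called lower with no filter (-0.38) and under total count scaling (-0.97). The others were Hist1h1t, Hist1h2ag, Hist2h2ab, Hist3h2a, Hist1h2bf, Hist1h2bn, Hist2h2be, Hist1h3b, Hist1h3i and Hist1h4n, with log2 values from -1.45 (Hist3h2a) to 0.31 (Hist2h2ab). Both ends of this range rest on few counts. In the 4h libraries clone4_1, clone4_2, clone8_1 and clone8_2, Hist3h2a had 2, 0, 0 and 1 counts and Hist2h2ab 2, 2, 4 and 3.

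The 4h vs 0h call counts were re-examined without the shallow libraries and within clones. With both 4h libraries of fewest counts left out, a check chosen after seeing the data, 45 of the replication-dependent genes fell, 44 of them among the 45, against 15.5% of all genes called lower in that fit. In clone 4 alone 46 fell (median log2 -1.31), against 10.4% of all genes, and in clone 8 alone 40 (median -0.80), against 14.7%. The fold was lower in clone 4 for 51 of 58 genes, but clone 4 has 1 library at 0h, the one with the highest replication-dependent share of that group.

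Scaling by total counts in place of TMM moved the median of all tested genes in 4h vs 0h from 0.03 to -0.73. With it 57 of 58 replication-dependent genes were lower, against 46.2% of all tested genes (median log2 -1.73), which is -1.001 relative to that of all genes. Of all genes called, 52.0% were higher under TMM and 7.11% under total counts.

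**Figure D4:**
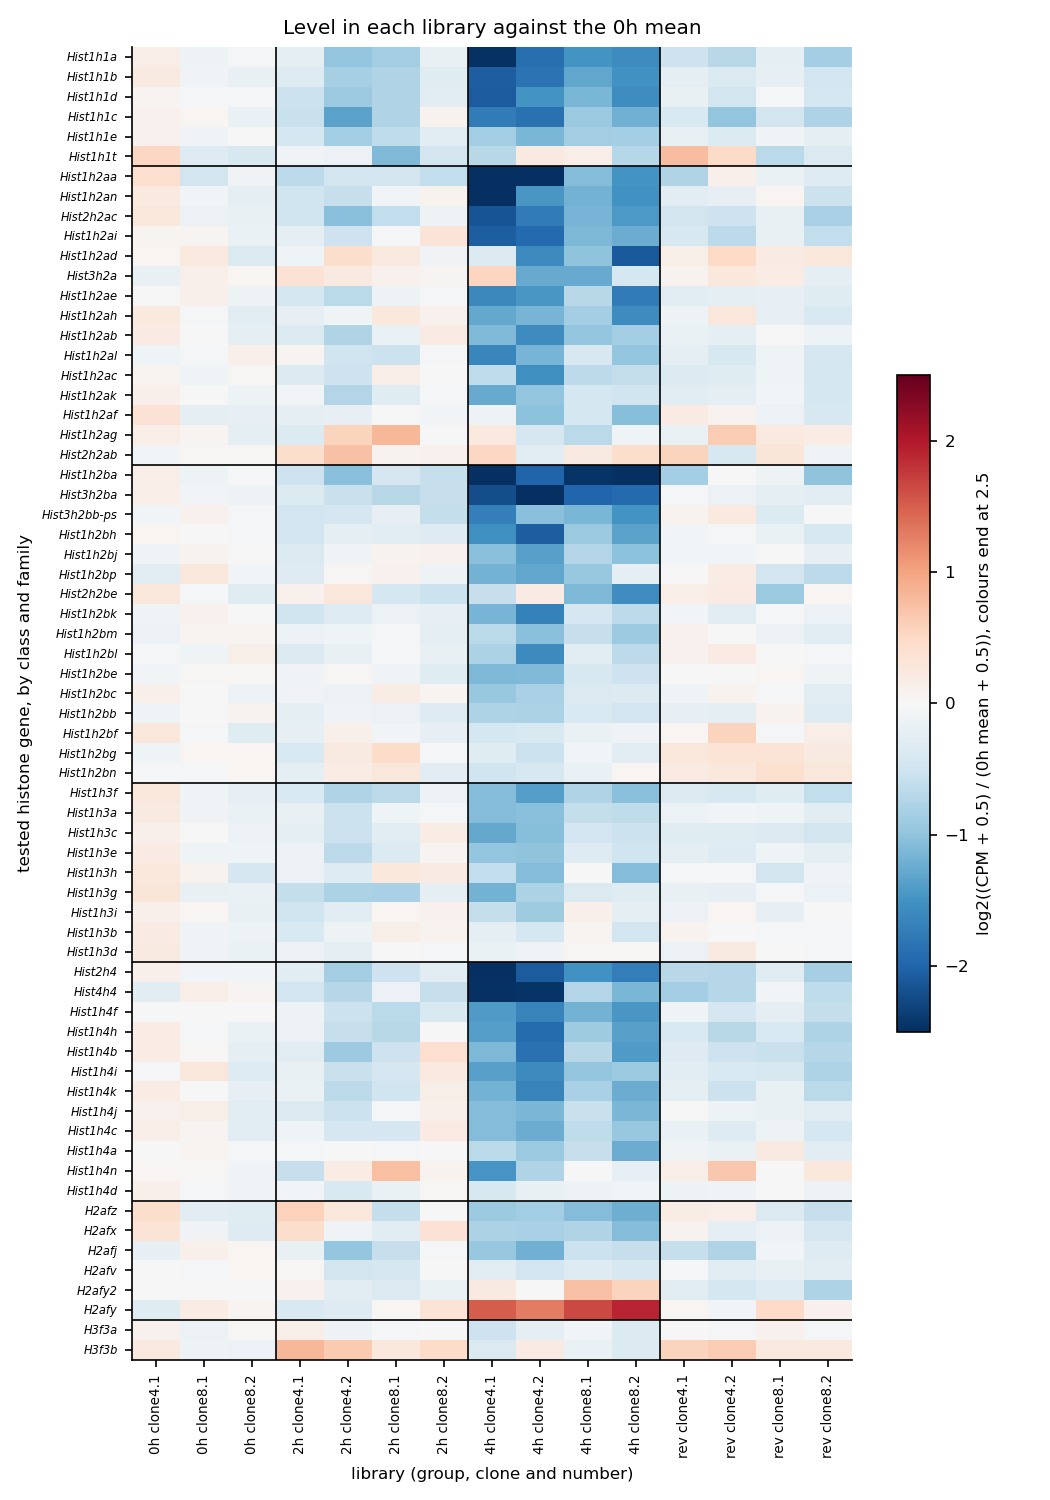
Level of the 66 tested histone genes in each of 15 libraries as log2((CPM + 0.5)/(mean CPM at 0h + 0.5)), rows ordered by family and by the change in 4h vs 0h, blue for lower and red for higher, with colours ending at 2.5. The 4h columns are blue for most replication-dependent rows, and H2afy is the red row.

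What the falling genes share was described with features of the gene models, with no test. Over all tested genes 18.9% were called lower in 4h vs 0h. The median log2 fold change in 4h vs 0h was -0.95 for the 39 tested genes with a stem-loop match (30 fell) and -0.95 for the 19 without (15 fell). It was -0.93 for the 20 tested genes with the commonest stem-loop form, of which 14 fell. Genes on chromosome 13 (50 tested, 40 fell) had a median of -0.91 and those elsewhere (8 tested, 5 fell) a median of -1.49. The 34 genes that shared at most 50% of their words with other transcripts had a median of -1.01 (28 fell), and the 24 that shared more had -0.75 (17 fell).

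Promoters, taken as 250 bases before to 50 bases after the start, came from RefSeq on GRCm38.p6. They matched 62 replication-dependent members (63 promoters) and 11 variants. Each motif was searched on both strands. TATAAA was in 55.6% of the 63 promoters and 13.6% of all 32851. CCAAT was in 85.7% and 37.4%. ATTTGCAT, the octamer known from H2B promoters, was in 22.2% and 1.74%, at 7 of 18 H2A and 7 of 17 H2B promoters and none of the other families. TTTCGCGC was in 14.3% and 0.323%, and TTTGGCGC in 0 and 0.514%. Among the 11 variant promoters TATAAA was in 9.09%, CCAAT in 81.8% and ATTTGCAT in 9.09%, the last being H3f3b. The median log2 fold change in 4h vs 0h was -1.13 for the 13 tested genes with ATTTGCAT (11 fell) and -0.93 for the 38 without (28 fell). For CCAAT it was -0.86 for the 43 genes with it (32 fell) and -1.25 for the 8 without (7 fell). For TATAAA it was -0.95 for the 33 genes with it (24 fell) and -0.88 for the 18 without (15 fell). These differences were not tested. A match is a description of these letters and no evidence of binding.

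The start sites of Hist1h2ba and Hist1h2aa, both among the deepest falls, face away from each other with 280 bases between them, so their promoter windows share 220 bases. The 250 bases before the start are shown for Hist1h2ba and Hist3h2ba, which fell most, and for Hist1h3d, which did not pass. Capitals mark the first 3 motifs named above on either strand.
Hist1h2ba, chr13:23934157-23934406, minus strand: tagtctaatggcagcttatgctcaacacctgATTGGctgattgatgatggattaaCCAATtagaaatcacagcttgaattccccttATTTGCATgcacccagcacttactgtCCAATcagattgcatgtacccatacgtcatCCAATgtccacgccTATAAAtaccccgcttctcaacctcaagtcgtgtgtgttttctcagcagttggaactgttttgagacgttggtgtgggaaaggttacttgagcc
Hist3h2ba, chr11:58948661-58948910, plus strand: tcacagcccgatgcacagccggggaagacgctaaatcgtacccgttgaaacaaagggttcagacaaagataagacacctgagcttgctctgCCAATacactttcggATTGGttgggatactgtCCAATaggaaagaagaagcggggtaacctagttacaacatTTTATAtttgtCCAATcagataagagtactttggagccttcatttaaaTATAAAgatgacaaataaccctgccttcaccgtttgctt
Hist1h3d, chr13:23575513-23575762, plus strand: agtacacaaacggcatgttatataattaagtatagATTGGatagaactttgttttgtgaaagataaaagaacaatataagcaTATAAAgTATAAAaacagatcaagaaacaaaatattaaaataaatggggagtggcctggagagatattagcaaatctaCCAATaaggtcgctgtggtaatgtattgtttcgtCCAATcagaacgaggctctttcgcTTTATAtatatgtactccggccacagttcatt
All 3 windows hold TATAAA and they also hold CCAAT. Of the 3, that of Hist1h2ba has ATTTGCAT.

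At 2 h of 4OHT few members passed. Of 58 replication-dependent genes 2 fell (3.45%) and none rose, against 2.46% of all tested genes called lower and 3.98% called higher. At an unadjusted p under 0.05 edgeR gave 12 lower and 0 higher, and DESeq2 gave 6 lower and 0 higher. Over all 13451 genes, 2842 had such an edgeR p in either direction. DESeq2 called 492 of 32611 unfiltered genes lower (1.51%) and 718 higher (2.20%). The class median was log2 -0.19, beside 0.01 over all tested genes, with 48 of 58 values negative. Without the 0h library clone4_1 it was -0.06, beside 0.03 over all genes, with 36 of 58 values negative. In clone 8 alone it was -0.06 with 34 negative, and in clone 4 alone, with 1 library at 0h, it was -0.46. For 13 of 58 genes every 2h library lay below every 0h library, against 8.99% of all tested genes. Hist1h1e, a major H1 subtype in somatic cells, gave 257, 225 and 238 CPM at 0h and 178, 133, 155 and 198 CPM at 2h. It gave 131, 109, 132 and 134 CPM at 4h and 212, 190, 226 and 204 CPM in rev. The 0h and 2h groups did not overlap, and the log2 fold change was -0.52 ± 0.11 (SE, edgeR adjusted p = 0.0046). The value of Hist3h2ba was -0.56 ± 0.14 (SE, adjusted p = 0.017). Without the 0h library clone4_1 neither was called (Hist1h1e -0.41, adjusted p = 0.096, Hist3h2ba -0.46, adjusted p = 0.20). Hist3h2ba was also not called without the 2h library clone4_2 (adjusted p = 0.0502) or clone8_1 (adjusted p = 0.076), in clone 4 alone (-0.64, adjusted p = 0.18) or with thinned counts (-0.42, adjusted p = 0.35), and Hist1h1e was not in clone 8 alone (-0.40, adjusted p = 0.086). The 6 H1 genes had log2 values from -0.58 to -0.51 at 2h, and for 4 of them the groups did not overlap.

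From 2 h to 4 h of 4OHT, 45 of 58 replication-dependent genes fell and none rose, against 19.2% of all tested genes called lower and 19.7% called higher. At an unadjusted p under 0.05 edgeR gave 48 lower and 0 higher, and DESeq2 gave 46 lower and 0 higher. Over all 13451 genes, 6407 had such an edgeR p in either direction. DESeq2 called 2285 of 32611 unfiltered genes lower (7.01%) and 2397 higher (7.35%). The class median was log2 -0.77. The largest falls with a mean of at least 1 CPM were those of Hist1h2ba (-2.12 ± 0.30), Hist3h2ba (-1.71 ± 0.15) and Hist1h2ad (-1.68 ± 0.34 SE). Of the 45 genes that fell in 4h vs 0h, 44 also fell in 4h vs 2h, and these comparisons share the 4h libraries. Without the 4h libraries of fewest counts 39 fell, against 14.7% of all genes in that fit. Hist1h3e fell by 0.43 on the log2 scale, and this was not called without any one of 2h clone4_1, 2h clone8_2, 4h clone4_1 or 4h clone4_2 (adjusted p from 0.067 to 0.095). The same holds of Hist1h2ak (-0.51) without 4h clone4_1 or clone4_2, and of Hist1h2bg (-0.39) without 2h clone4_2, 2h clone8_1 or 4h clone4_2.

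After the MEK inhibitor most of the class was higher than at 4h. In rev vs 4h, 48 of 58 replication-dependent genes rose and none fell, against 15.1% of all tested genes called higher and 15.6% called lower. At an unadjusted p under 0.05 edgeR gave 49 higher and 0 lower, and DESeq2 gave 45 higher and 0 lower. Over all 13451 genes, 5482 had such an edgeR p in either direction. DESeq2 called 1594 of 32611 unfiltered genes higher (4.89%) and 1908 lower (5.85%). The class median was log2 0.76, beside 0.02 over all tested genes. By family, 5 of 6 H1 (median 1.03), 12 of 15 H2A (median 1.09), 15 of 16 H2B (median 0.76), 5 of 9 H3 (median 0.46) and 11 of 12 H4 genes (median 0.81) rose. The largest rises were those of Hist1h2ba (2.30), Hist3h2ba (2.09) and Hist1h2ad (1.84). Of the 45 genes that fell in 4h vs 0h, 44 rose in rev vs 4h and 1, Hist1h3h, did not pass. These comparisons share the 4h libraries. Hist1h2bf, Hist1h2bg, Hist1h2bn and Hist1h4n rose in rev vs 4h and were not called in 4h vs 0h. Hist1h2bg had 51.2 to 55.9 CPM in rev, above every 0h and 4h library (rev vs 4h log2 0.60 ± 0.13 SE, edgeR adjusted p = 0.0012). Hist1h4d and Hist1h3d were among 9 genes called in neither 4h comparison nor in rev vs 4h.

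Within clones the rise differed in count. In clone 4 alone 48 rose (median log2 1.11), against 6.06% of all genes, and in clone 8 alone 28 (median 0.48), against 13.1%. Without both 4h libraries of fewest counts 38 rose, against 10.2%. Hist1h3e rose by 0.46 on the log2 scale, which was not called without any one of 4h clone4_1, 4h clone4_2, rev clone4_1 or rev clone8_1 (adjusted p from 0.052 to 0.086). Hist1h2ak rose by 0.53, which was not called without any one of 4h clone4_1, 4h clone4_2 or rev clone8_1 (adjusted p from 0.054 to 0.061). In clone 8 alone the rise was 0.24 for Hist1h2ak (adjusted p = 0.26) and 0.23 for Hist1h3e (adjusted p = 0.20), and without both 4h libraries of fewest counts neither was called (adjusted p = 0.0945 and 0.136). In clone 8 alone those of Hist1h2bb, Hist1h3f and Hist1h4h were not called either (adjusted p = 0.090, 0.056 and 0.090).

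Against 0h, the rev libraries showed 1 lower and 0 higher replication-dependent genes of 58, beside 4.66% of all tested genes called lower and 6.49% called higher. At an unadjusted p under 0.05 edgeR gave 8 lower and 2 higher, and DESeq2 gave 1 lower and 0 higher. Over all 13451 genes, 3558 had such an edgeR p in either direction. DESeq2 called 895 of 32611 unfiltered genes lower (2.74%) and 971 higher (2.98%). The class median was log2 -0.14, with 44 of 58 values negative. Without 0h clone4_1 it was -0.07 with 32 negative, and without rev clone8_2 it was -0.09 with 38 negative. The 1 gene called lower was Hist2h4 (-0.60 ± 0.17 SE, edgeR adjusted p = 0.029). It was not called without 0h clone4_1 (adjusted p = 0.27), without rev clone4_2 (adjusted p = 0.073) or without rev clone8_2 (adjusted p = 0.10). With only the compared groups in the fit, 19 genes were lower and 2 higher, against 11.6% and 11.4% of all genes in that fit.

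The variant histones did not move as 1 class. In 4h vs 0h, 4 of 8 fell (50%) and 1 rose (12.5%), with a median log2 fold change of -0.32. Over all tested genes 18.9% were called lower and 20.5% higher. The 4 were H2A variants: H2afz, H2afx, H2afj and H2afv. H2afz (chr3:137864487-137866922, plus strand) encodes H2A.Z, which is placed at promoters and enhancers. It gave 180, 111 and 107 CPM at 0h, 199, 162, 87.6 and 134 CPM at 2h, 69.6, 72.8, 62.8 and 56.6 CPM at 4h, and 152, 150, 103 and 89.1 CPM in rev. The 4h libraries lay below all others, and in every group the clone 4 libraries lay above those of clone 8. Its log2 fold change was -1.07 ± 0.13 (SE, edgeR adjusted p = 1.6e-06) in 4h vs 0h and 0.88 ± 0.12 (SE, adjusted p = 1.2e-05) in rev vs 4h. H2afv, which encodes the other H2A.Z, had 21 to 22.2 CPM at 0h and 15.3 to 17.7 CPM at 4h (log2 -0.38 ± 0.14 SE, adjusted p = 0.036).

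H2afx (chr9:44334694-44336077, plus strand) encodes H2A.X, which is phosphorylated around DNA breaks, and its transcripts can end in the histone stem-loop or in a poly(A) tail. It gave 225, 168 and 142 CPM at 0h, 241, 167, 146 and 228 CPM at 2h, 103, 102, 106 and 83.3 CPM at 4h, and 190, 153, 161 and 133 CPM in rev. The 4h libraries lay below all others. The log2 fold change was -0.88 ± 0.16 (SE, edgeR adjusted p = 0.00032) in 4h vs 0h and 0.69 ± 0.15 (SE, adjusted p = 0.0019) in rev vs 4h. The rise was not called without both 4h libraries of fewest counts (0.60, adjusted p = 0.052). H2afj, an H2A variant, had 19.8 to 24.9 CPM at 0h and 9.63 to 15.5 CPM at 4h (log2 -0.76 ± 0.17 SE, adjusted p = 0.0013).

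H2afy (chr13:56073619-56136361, minus strand) encodes macroH2A1, a large variant known from silent chromatin and the inactive X. It moved the other way. Its level was 6.91, 9.89 and 9.09 CPM at 0h and 6.47, 6.81, 8.90 and 11.1 CPM at 2h. At 4h it was 25.7, 21.7, 28.2 and 33.6 CPM, and in rev 8.90, 8.26, 12.3 and 9.34 CPM. All 4h libraries lay above all others, and 0h, 2h and rev overlapped. Its log2 fold change was 1.73 ± 0.15 (SE, edgeR adjusted p = 2.3e-08) in 4h vs 0h, 1.72 ± 0.14 (SE, adjusted p = 5.5e-09) in 4h vs 2h and -1.48 ± 0.14 (SE, adjusted p = 7.5e-08) in rev vs 4h. Under total count scaling the 4h vs 0h value was 1.01 (adjusted p = 0.0055). Per length it remained low, at 1.27 CPM per kb at 0h and 4.01 at 4h, beside 74.8 and 36.9 for H2afz. Their models were 6809 and 1776 bases long.

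H2afy2 encodes macroH2A2. It gave 9.72, 9.89 and 9.93 CPM at 0h, 10.7, 8.14, 7.59 and 8.78 CPM at 2h, 11.6, 9.87, 16.6 and 14.7 CPM at 4h, and 8.13, 7.12, 7.75 and 5.60 CPM in rev. The 4h libraries lay above all rev libraries and overlapped 0h. The log2 fold change was 0.59 ± 0.18 (SE, edgeR adjusted p = 0.010) in 4h vs 2h, -0.89 ± 0.18 (SE, adjusted p = 0.00066) in rev vs 4h and 0.43 ± 0.19 (SE, adjusted p = 0.072) in 4h vs 0h. The 4h vs 2h rise was not called without 4h clone8_1 (0.45, adjusted p = 0.063), in clone 4 alone (0.15, adjusted p = 0.71), with thinned counts (0.44, adjusted p = 0.30) or under total count scaling (0.05, adjusted p = 0.91). The 4h vs 0h value was called in clone 8 alone (0.65, adjusted p = 0.025) and without 4h clone4_2 (0.54, adjusted p = 0.028), and was -0.31 under total count scaling. The fall in rev vs 4h was also not called under total count scaling (-0.46, adjusted p = 0.26) or in clone 4 alone (-0.46, adjusted p = 0.26).

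H3f3a and H3f3b encode the same protein, H3.3, which is deposited outside replication. H3f3b (chr11:116021912-116027962, minus strand) gave 258, 201 and 198 CPM at 0h, 390, 344, 263 and 302 CPM at 2h, 170, 251, 194 and 172 CPM at 4h, and 323, 339, 260 and 258 CPM in rev. Its 2h and rev libraries lay above all 4h libraries, its 2h libraries lay above all of 0h, and its lowest rev library matched the highest of 0h to 3 digits. It was the 1 variant called in 2h vs 0h, higher by 0.51 ± 0.10 (log2, SE, edgeR adjusted p = 0.0038). That call was lost in clone 4 alone, with 1 library at 0h (0.50, adjusted p = 0.27), without the clone term (0.57, adjusted p = 0.057) and under total count scaling (0.32, adjusted p = 0.78). It was lower in 4h vs 2h (-0.71 ± 0.10 SE, adjusted p = 5.7e-06), higher in rev vs 4h (0.58 ± 0.10 SE, adjusted p = 9.6e-05) and not called in 4h vs 0h (-0.20 ± 0.10 SE, adjusted p = 0.13). The last value was called without 4h clone4_2 (-0.29, adjusted p = 0.037), with no filter (-0.32, adjusted p = 0.0031) and under total count scaling (-0.95, adjusted p = 0.0023), and was -0.05 without both 4h libraries of fewest counts. It was the 1 variant called in rev vs 0h (0.38 ± 0.10 SE, adjusted p = 0.022). That call was lost without any single 0h library or without rev clone4_2, clone8_1 or clone8_2 (adjusted p from 0.054 to 0.087). H3f3a gave 31.3, 26.4 and 29.7 CPM at 0h, 32.5, 26.8, 28.3 and 29.4 CPM at 2h, 20.2, 24.9, 27.8 and 23.0 CPM at 4h, and 28.9, 28.3, 31.4 and 28.5 CPM in rev. The 4h libraries lay below all of rev and overlapped 0h and 2h. It was called in no comparison (4h vs 0h -0.27 ± 0.12 SE, adjusted p = 0.077), but was called lower in 4h vs 0h and 4h vs 2h, and higher in rev vs 4h, without 4h clone8_1 (adjusted p = 0.028, 0.023 and 0.033).

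In total 6 of 8 variants passed in 4h vs 2h (4 lower, 2 higher) and 5 in rev vs 4h (3 higher, 2 lower), against the background shares given for these comparisons above. Of H3 genes, the replication-dependent Hist1h3e stood at 200 CPM per kb at 0h and 126 at 4h, while H3f3b stood at 73.6 and 66.1. Their models were 836 and 2976 bases long.

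Clone 8 differed from clone 4 in the level of 8 of 66 members, 4 higher and 4 lower, against 10.4% of all tested genes called higher and 8.11% called lower. Hist4h4 (log2 0.66), Hist1h2bk (0.33), H2afy (0.44) and H2afj (0.39) were higher in clone 8. Hist2h2be (-0.83), Hist1h1t (-0.79), H2afz (-0.58) and H3f3b (-0.32) were lower. The course over the groups differed between clones for 2 of 66 members, Hist4h4 (adjusted p = 0.014) and Hist1h2aa (adjusted p = 0.024), by edgeR's joint test of 3 interaction coefficients, against 3.18% of all tested genes. Hist4h4, an H4 gene of its own cluster, gave 82.9, 114 and 106 CPM at 0h, 72.4, 61.4, 91.0 and 67.7 CPM at 2h, 17.7, 18.0, 60.6 and 45.6 CPM at 4h, and 54.9, 60.9, 96.4 and 64.7 CPM in rev. At 4h both clone 4 libraries lay below both clone 8 libraries. Clone 4 has 1 library at 0h.

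Other genes of the histone supply were read from lists of genes by role. Of 18 tested genes for processing and decay, 0 rose and 4 fell (22.2%) in 4h vs 0h (median log2 -0.04), near the 18.9% of all tested genes called lower. At an unadjusted p under 0.05 edgeR gave 2 higher and 5 lower, and DESeq2 gave 0 higher and 4 lower. The values over all genes at these thresholds are given above for 4h vs 0h. Slbp gave 47.7, 40.6 and 38.8 CPM at 0h, 74.2, 80.3, 59.5 and 53.2 CPM at 2h, 22.6, 33.1, 28.9 and 25.6 CPM at 4h, and 46.5, 65.5, 51.7 and 53.3 CPM in rev. The 2h libraries lay above and the 4h libraries below all 0h libraries. It rose in 2h vs 0h (log2 0.61 ± 0.13 SE, edgeR adjusted p = 0.0067), fell in 4h vs 2h (-1.25 ± 0.13 SE, adjusted p = 1.4e-07) and rose in rev vs 4h (0.96 ± 0.13 SE, adjusted p = 5.6e-06). The others that fell in 4h vs 0h were Hinfp (-0.55), which activates H4 genes, Lsm11 (-0.62), of the U7 particle that cuts histone pre-mRNA, and Lsm1 (-0.62), of a decay complex.

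Of 23 tested chaperones and deposition factors, 7 fell (30.4%) and 3 rose (13.04%) in 4h vs 0h, beside 18.9% and 20.5% of all tested genes. Hira, which deposits H3.3, fell by 1.07 ± 0.21 on the log2 scale (SE, edgeR adjusted p = 0.00040). Chaf1a (-0.70) and Chaf1b (-0.55), of the CAF-1 complex that loads new H3 and H4 at forks, fell, as did Rbbp4 (-0.59), Ssrp1 (-0.56), Nasp (-0.22) and Nap1l1 (-0.24). Asf1b, an H3-H4 chaperone, rose by 0.77 ± 0.15 (SE, adjusted p = 0.00040), with Atrx (0.40) and Hjurp (0.27).

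Of 29 tested S phase genes, 0 rose and 9 fell (31.0%) in 4h vs 0h (median log2 -0.20), beside 18.9% of all tested genes called lower. In 4h vs 2h 15 fell (51.7%, beside 19.2%), and in rev vs 4h 9 rose (31.0%, beside 15.1%). In 4h vs 0h an unadjusted p under 0.05 gave 0 higher and 11 lower with edgeR, and DESeq2 gave 0 higher and 10 lower. The values over all genes at these thresholds are given above. Fen1 (-1.01), Rpa2 (-0.84) and Gins2 (-0.84), all of the replication machinery, had the largest falls, and Rrm2, a subunit of ribonucleotide reductase, fell by 0.56. Their part in the histone values was not tested. Of the linker and centromere histones outside the clusters, H1f0, H1fx and Cenpa were tested. In 4h vs 0h none was called by edgeR, with 1 lower at an unadjusted p under 0.05 and 1 lower by DESeq2.

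Libraries of total RNA also hold other RNAs without poly(A) tails. Of 11 listed RNAs without poly(A) tails or kept in the nucleus, 10 had a row of counts and 8 were tested. Of these 8, 4 fell (50%) and 0 rose in 4h vs 0h, beside 18.9% and 20.5% of all tested genes. Both edgeR at an unadjusted p under 0.05 and DESeq2 gave 0 higher and 4 lower. The values over all genes at these thresholds are given above. Rmrp, the RNA of RNase MRP, had 232 to 336 CPM at 0h, 15.8 to 36.9 CPM at 4h and 75.7 to 201 CPM in rev (4h vs 0h log2 -3.50 ± 0.41 SE, edgeR adjusted p = 9.2e-05). Rpph1, the RNA of RNase P, fell by 2.55, Terc, the telomerase RNA, by 1.39 and Rn7sk by 0.76 on the log2 scale. Malat1 (-0.15) and Neat1 (0.38) were not called. In rev vs 4h Rmrp and Rpph1 rose and Neat1 fell. The part of this RNA class in the histone result was not tested.

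**Figure D5:**
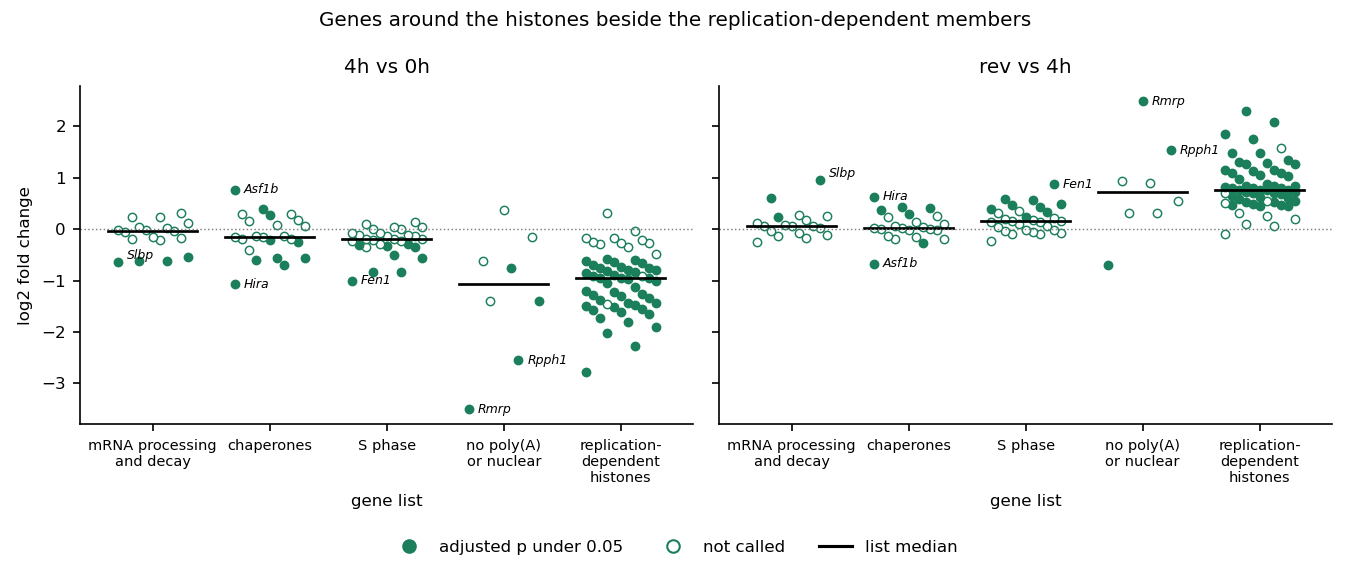
Log2 fold change of each tested gene in 4h vs 0h and rev vs 4h, for genes of histone mRNA processing and decay, histone chaperones, S phase genes, RNAs without poly(A) tails or kept in the nucleus, and the replication-dependent histones. Filled points passed an adjusted p of 0.05 and bars are list medians, which lie at -0.95 for the histones and -0.20 for the S phase genes in 4h vs 0h.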

How the data were processed

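Total RNA of 15 mouse EpiLC libraries was sequenced after rRNA depletion, per the labels' protocols. The deposited values are whole-number counts per gene. The submitters' processing notes name bcl2fastq 2.19.1, STAR 2.5.3a and mm10. The counting tool, annotation and strand are not given in the sources used here. Gene models, overlaps and transcript sequences came from GENCODE M21 (GRCm38), which holds 52489 of 52636 identifiers. Transcript sequences stood in for a genome in the stem-loop search. Counts were fitted across the whole table in R 4.3.3 with edgeR 4.0.16: filterByExpr by group (minimum count 10, total 15), TMM, group plus clone over all 15 libraries, robust quasi-likelihood F tests (two-sided), Benjamini-Hochberg adjustment over 13451 genes, calls under 0.05. DESeq2 1.42.0 was an alternative. The test was checked on simulated data. The members and lists were chosen with earlier results of these data known. Library values are given for the 2 most abundant members of each family and the 3 largest called changes in each direction of each comparison of groups (mean of at least 1 CPM). Hist1h3d, Hist4h4, H2afv, H2afj, Slbp and Rmrp were added after their values were seen.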

Additional observations from a re-analysis of the deposited data

Results flagged for a closer look

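Of 72 groups of 4 libraries examined for a value far from the others, 3 held one, where chance gives about 1 in 20. Hist1h1e at 4h was 108.6 CPM in clone4_2 and 131.3 to 133.8 CPM in the others. In rev, the replication-dependent share of counts was 0.390% in clone4_1 and 0.280 to 0.297% in the others. At 4h, the variant share of counts was 0.0454% in clone4_1, the library of fewest counts, and 0.0309 to 0.0333% in the others. Hist4h4 (adjusted p = 0.0137) and Hist1h2aa (adjusted p = 0.0241) took different courses in the 2 clones by edgeR's joint interaction test. At 4h the clone 8 minus clone 4 difference in response was 1.17 for Hist4h4 and 2.92 for Hist1h2aa on the log2 scale. The latter rests on 1 and 3 counts in the clone 4 libraries.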

How the results depend on the processing

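Replication-dependent calls numbered 37 (thinned counts) to 57 (total count scaling) in 4h vs 0h and 30 to 55 in 4h vs 2h, all lower, over the alternatives run. In rev vs 4h they numbered 34 to 53, all higher, other than 28 in clone 8 alone. No called value of a named member changed sign. Of 62 called values of named members, 40 were called under every alternative. The small counts moved. In 2h vs 0h (2 replication-dependent calls) there were 6 with DESeq2, 7 with TMM without the most abundant genes, 5 in clone 4 alone, 1 in clone 8 alone, 10 with no filter, 8 with only the compared groups, 5 with the quasi-dispersion of older edgeR (chosen after seeing the data), 0 with total counts, and 0 to 6 with a library left out. The 1 variant call there became 0 in clone 4 alone, without the clone term and with total counts, and 1 to 2 with a library left out. In rev vs 0h the 1 replication-dependent call became 2 with TMM without the most abundant genes, 9 with no filter, 21 with only the compared groups, 4 with total counts and 0 in clone 8 alone, with thinned counts and without the clone term, and 0 to 1 with a library left out. The 1 variant call became 4 with only the compared groups and 0 in clone 4 alone, without the clone term and with total counts, and 0 to 1 with a library left out. Clone 8 vs clone 4 (8 calls) gave 3 with thinned counts, 3 with total counts and 6 to 13 with a library left out. The clone difference in response (2 calls) gave 13 with no filter, 0 with total counts and 0 to 5 with a library left out. Shares of counts by denominator stand in the text: replication-dependent 1.18, 0.882, 0.551 and 0.955%, variant 0.194, 0.222, 0.139 and 0.203%. The cause of these shifts was not tested.

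Replicate numbers did not pair the libraries: with 2 libraries per group and clone the deviations mirror each other, which leaves 9 distinct correlations, from -0.194 to 0.261, with 1 over 0.1. With a replicate block, replication-dependent calls were 45 in 4h vs 0h, 45 in 4h vs 2h, 47 in rev vs 4h and 0 in rev vs 0h. The clone comparison could not be run without its clone term, nor the joint test without 0h clone4_1. The 4h depth limits genes near 1 CPM.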
